A study of Mus musculus and Ictidomys tridecemlineatus with 36 samples.

Results

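The regions described here are active enhancers bound by Otx2 and not by Neurod1 in the developing retina of the 13-lined ground squirrel (13LGS) and the mouse. An active enhancer was an H3K27ac peak that overlapped no H3K4me3 peak, and a member of the Otx2-only group also overlapped an Otx2 peak by at least 1 bp and no Neurod1 peak of the same species. The rule found 6584 members among 85510 active enhancers in 13LGS (93999 H3K27ac peaks in all) and 4771 among 58164 in mouse (62930 H3K27ac peaks), 11355 regions in total. The members were chosen by the peak calls of H3K27ac, H3K4me3, Otx2, and Neurod1, so their values are given as a description, whereas H3K4me1, the DNA sequence, and the position in the genome took no part in the choice.

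The data are CUT&RUN peak lists, in which the DNA around a bound antibody is cut free and sequenced, from P5 13LGS retina (16 libraries) and P2 mouse retina (20 libraries). Each species had 2 biological replicates, each a pool of retinas from 2 13LGS individuals or 3 mice, with 500000 13LGS or 385000 mouse nuclei in a reaction. No treatment or genetic change is given for either species, and the cone-dominant 13LGS and rod-dominant mouse stages were compared by the study as times of late retinal neurogenesis. Each 13LGS histone list came from 1 library and each mouse histone list from 2, Neurod1 lists came from 4 libraries in each species, and Otx2 lists combined antibodies from R&D Systems (4 libraries in each species) and Atlas Antibodies (2 in 13LGS and 4 in mouse). Whole retina was used, so the cell type that carries a peak is unknown, and fewer cells with a mark cannot be told apart from less of the mark per cell. Because each list pools its libraries, a peak has 1 fold enrichment over the IgG control, no spread between replicates, and unknown read depth; no difference was therefore tested, and the 95% Wilson intervals given with shares cover counting error only.

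Otx2 is a homeodomain TF needed for photoreceptor and bipolar cell fate, and it is made in neurogenic progenitors, photoreceptor precursors, bipolar cells, and the retinal pigment epithelium. Its preferred DNA site is TAATCC, which it shares with the related photoreceptor factor Crx. Neurod1 is a basic helix-loop-helix (bHLH) TF of photoreceptor precursors that binds E-boxes such as CAGATG. H3K27ac marks active enhancers and promoters, H3K4me3 marks promoters, and H3K4me1 marks enhancers whether or not they are active.

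Reference sequences around the Otx2 summits of mouse members (GRCm38, plus strand) show the DNA under these Otx2 peaks. Each run of 300 bases is centred on the Otx2 summit, with every TAATCC or its reverse complement in capitals. The runs at *Dll1*, a Notch ligand gene, and at *Nfib* and *Rorb*, which encode TFs of progenitors and photoreceptors, carry the motif, and the run at *Prdm1*, under an 18-fold Otx2 peak, has no such site. The *Dll1* run lies inside its acetylated peak, chr17:15229701-15230252. The other runs lie beside theirs, which are chr4:82594559-82594944 for *Nfib*, chr19:18998641-18998974 for *Rorb*, and chr10:44476195-44476412 for *Prdm1*, because the Otx2 peak reaches into the acetylated peak and its summit does not.
Dll1, chr17:15229768-15230067: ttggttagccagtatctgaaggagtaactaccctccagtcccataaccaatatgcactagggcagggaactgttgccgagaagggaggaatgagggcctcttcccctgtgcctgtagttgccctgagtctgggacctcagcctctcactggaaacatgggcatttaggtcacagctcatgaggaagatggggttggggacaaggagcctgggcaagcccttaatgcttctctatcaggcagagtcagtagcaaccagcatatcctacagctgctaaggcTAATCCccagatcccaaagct
Nfib, chr4:82593930-82594229: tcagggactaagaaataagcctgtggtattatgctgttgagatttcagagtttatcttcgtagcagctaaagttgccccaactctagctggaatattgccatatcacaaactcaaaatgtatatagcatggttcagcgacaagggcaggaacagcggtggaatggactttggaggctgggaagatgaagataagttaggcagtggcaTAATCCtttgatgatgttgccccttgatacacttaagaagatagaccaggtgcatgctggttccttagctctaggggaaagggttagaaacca
Rorb, chr19:18999153-18999452: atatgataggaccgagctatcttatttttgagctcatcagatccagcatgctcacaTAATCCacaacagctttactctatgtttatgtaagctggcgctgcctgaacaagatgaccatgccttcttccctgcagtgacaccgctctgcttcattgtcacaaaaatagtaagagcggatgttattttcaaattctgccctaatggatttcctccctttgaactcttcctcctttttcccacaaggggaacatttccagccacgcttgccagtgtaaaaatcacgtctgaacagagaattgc
Prdm1, chr10:44476713-44477012: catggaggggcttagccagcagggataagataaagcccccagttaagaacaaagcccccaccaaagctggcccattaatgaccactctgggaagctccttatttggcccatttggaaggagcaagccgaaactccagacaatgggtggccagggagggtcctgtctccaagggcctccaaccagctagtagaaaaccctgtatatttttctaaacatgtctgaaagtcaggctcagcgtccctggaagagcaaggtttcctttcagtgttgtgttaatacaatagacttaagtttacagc

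Windows were read for the mouse members with the strongest Otx2 peaks, next to leading genes of the lists, or next to the genes with the most members. Of the 40 windows that lay outside UTRs, 8 held TAATCC. The share of windows with it was 22.7% over all mouse members and 18.3% over all Otx2 peaks. The 3 windows in UTRs, that of the member near *Mindy4* included, are not shown. In each of the 8, the match nearest to the summit is shown with 18 bases on either side, turned so that the motif reads TAATCC. They are listed by the nearest gene, and the strand is that of the motif.
Nfib, chr4:82594119-82594160, plus strand: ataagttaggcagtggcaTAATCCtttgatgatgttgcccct
Rorb, chr19:18999191-18999232, plus strand: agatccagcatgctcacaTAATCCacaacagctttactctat
Ppm1h, chr10:122792448-122792489, plus strand: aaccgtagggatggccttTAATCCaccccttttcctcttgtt
Sox8, chr17:25561531-25561572, plus strand: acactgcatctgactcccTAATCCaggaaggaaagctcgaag
Dll1, chr17:15230029-15230070, plus strand: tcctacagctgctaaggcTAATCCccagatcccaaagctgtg
C1qb, chr4:136864976-136865017, plus strand: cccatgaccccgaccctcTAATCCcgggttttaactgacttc
Abcb4, chr5:8947442-8947483, minus strand: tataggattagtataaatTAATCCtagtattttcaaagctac
Pecam1, chr11:106737111-106737152, plus strand: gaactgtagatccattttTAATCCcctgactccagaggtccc
The *Nfib* match lay 60 bp from the Otx2 summit and the *Rorb* match 91 bp from it, and the other 6 lay between 104 and 140 bp away. The *Abcb4* run also holds the reverse complement of the motif, in lower case, outside the window that was searched.

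Otx2-only enhancers made up a similar part of the active enhancers in both species. They were 7.7% of active enhancers in 13LGS (95% Wilson interval 7.52 to 7.88) and 8.2% in mouse (7.98 to 8.43). Enhancers bound by both factors were rarer, 1657 in 13LGS and 1631 in mouse, and those bound by Neurod1 only numbered 657 and 231, so members were 79.9% of the Otx2-bound active enhancers in 13LGS and 74.5% in mouse. These shares depend on the length of the Otx2 lists: cut to the number of Neurod1 peaks, the Otx2 list left 670 members (0.784%) in 13LGS and 594 (1.02%) in mouse. The remaining 76612 and 51531 active enhancers overlapped neither factor. By chromosome, the share of active enhancers that were members ran from 4.82% on Itri18 (4.01 to 5.79) to 11.3% on Itri19 (8.85 to 14.3) in 13LGS, and from 6.65% on chromosome 10 (5.92 to 7.46) to 11.4% on chromosome 11 (10.3 to 12.7) in mouse.

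Members were broad peaks, and over all widths they were more acetylated than unbound enhancers. The median H3K27ac peak of a member was 1302.5 bp wide in 13LGS and 996 bp in mouse, against 412 and 396 bp for unbound active enhancers and 1861 and 1332 bp for those bound by both factors. A wider peak has more bases on which to meet an Otx2 peak, and width rose with H3K27ac fold enrichment across members (Spearman's rho 0.75 over 6584 members in 13LGS and 0.74 over 4771 in mouse, as a description). The median H3K27ac fold enrichment of members was 4.41 in 13LGS and 4.21 in mouse, between the 3.12 and 3.31 of unbound enhancers and the 4.92 and 4.47 of those bound by both. Members spanned a wide range, and the middle 90% of them had H3K27ac fold enrichments of 2.46 to 9.94 in 13LGS and 2.53 to 9.23 in mouse. At equal width the medians were closer: under 500 bp they were 3.03 in members and 2.90 in unbound enhancers in 13LGS and 3.12 in both groups in mouse, and at 2000 bp or more they were 6.76 and 5.55 in 13LGS and 6.6 and 5.77 in mouse.

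The Otx2 peaks at members were of ordinary strength. The strongest Otx2 peak on a member had a median fold enrichment of 3.17 in 13LGS (25th to 75th percentile 2.68 to 3.91) and 3.56 in mouse (2.90 to 4.65). At enhancers that also bound Neurod1 the medians were 3.72 and 5.34. Counted by Otx2 peak, the medians were 3.10 at members, 3.15 over all Otx2 peaks, and 3.29 at H3K4me3 peaks in 13LGS, and 3.49, 3.54, and 3.72 in mouse. Members took 25% of the Otx2 peak list of 13LGS and 16.7% of that of mouse. A single Otx2 peak was found on 93.1% of members in 13LGS and 95.6% in mouse, and the most on 1 member was 7 and 4. The Otx2 fold enrichment of a member said little about its acetylation: Spearman's rho with the H3K27ac fold enrichment was 0.12 in 13LGS and 0.064 in mouse.

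Otx2 summits lay mostly within the acetylated peak, but often away from its highest point. The Otx2 summit lay a median of 206 bp from the H3K27ac summit in 13LGS and 220 bp in mouse, and 12.1% of members in 13LGS and 19.1% in mouse had it outside the H3K27ac peak. With members split into 4 equal groups by Otx2 fold enrichment, the summit lay inside the H3K27ac peak in 87.7%, 91.1%, 90.9%, and 81.7% from weakest to strongest in 13LGS, and in 83.2%, 85.6%, 80.9%, and 73.9% in mouse. The strongest Otx2 sites therefore had the lowest share in both species. In mouse, 129 Otx2 peaks touched more than 1 member, joining 260 members, and in 13LGS 113 did so, joining 224. Such members share 1 Otx2 peak and are not independent of each other.

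Members at the limits of the rule were counted too. Weak calls were the most frequent: the Otx2 peak had a −log10 q below 2 at 469 members in 13LGS (7.12%) and 271 in mouse (5.68%), and the H3K27ac peak at 192 (2.92%) and 208 (4.36%). In 13LGS 101 members overlapped Otx2 by 50 bp or less (median H3K27ac fold enrichment 2.94), and 76 unbound active enhancers had an Otx2 peak within 50 bp (3.12). In mouse the numbers were 111 (3.03) and 65 (3.38). A Neurod1 peak lay within 100 bp of 29 members in 13LGS and 25 in mouse, whose median Otx2 fold enrichments, 4.8 and 6.39, were above those of all members. Within 1 kb the shares with a Neurod1 peak were 2.04% and 3.29%, against 0.986% and 0.932% of unbound enhancers.

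Almost every member carried H3K4me1, the mark that the rule did not use. An H3K4me1 peak overlapped 6422 of 6584 members in 13LGS, 97.5% (97.1 to 97.9), against 68.3% of all active enhancers and 64.9% (64.6 to 65.3) of unbound ones. In mouse it overlapped 4698 of 4771 members, 98.5% (98.1 to 98.8), against 57.3% of all active enhancers and 52.0% (51.6 to 52.4) of unbound ones. Enhancers bound by both factors were slightly higher than members, at 98.7% (98 to 99.1) and 99.3% (98.8 to 99.6), with intervals that just failed to meet those of members. Those bound by Neurod1 only had it in 94.5% (92.5 to 96.0) and 95.7% (92.2 to 97.6), so a high share was common to all 3 bound groups. At the single base of the H3K27ac summit, H3K4me1 was called at 96.6% of members in 13LGS and 97.4% in mouse, and at 60.6% and 48.0% of unbound enhancers. The share at the summit also rose with width, from 48.6% to 97.0% of unbound enhancers in 13LGS and from 37.7% to 91.3% in mouse between peaks under 500 bp and those of 2000 bp or more.

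The difference was largest among narrow peaks. Of members under 500 bp wide, 91.4% (89.7 to 92.8) had H3K4me1 in 13LGS and 96.2% (95 to 97.1) in mouse. Unbound enhancers of that width had it in 52.5% (52.1 to 53.0) and 40.8% (40.3 to 41.4), and those bound by Neurod1 only in 88.67% and 93.55%. Among peaks of 2000 bp or more, every one of the 2190 members in 13LGS and 1123 in mouse had H3K4me1, and so did 99.0% and 95.1% of unbound enhancers. Counted by Otx2 peak, binding without acetylation went with a lower share. Of Otx2 peaks with neither H3K4me3 nor H3K27ac, 69.8% (68.6 to 70.9) in 13LGS and 78.9% (78.1 to 79.7) in mouse overlapped H3K4me1. Of the Otx2 peaks at members, 97.6% (97.2 to 97.9) and 98.6% (98.2 to 98.9) did so.

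Members had the highest median level of H3K4me1. The strongest overlapping H3K4me1 peak had a median fold enrichment of 10.9 at members in 13LGS and 12.2 in mouse, against 8.53 and 9.62 at enhancers bound by both factors and 6.93 and 8.44 at unbound ones. The order of members above both other groups held in each of the 4 width classes in both species. For peaks of at least 1000 and under 2000 bp, for instance, the medians were 10.9, 8.15, and 8.79 in 13LGS and 13.1, 9.56, and 10.7 in mouse for members, enhancers bound by both, and unbound enhancers. It also held for the H3K4me1 peak over the H3K27ac summit (11, 8.59, and 7.22 in 13LGS, and 12.3, 9.65, and 8.92 in mouse). Across members the H3K4me1 and H3K27ac fold enrichments rose together (Spearman's rho 0.46 over 6422 members in 13LGS and 0.32 over 4698 in mouse).

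**Figure D1:**
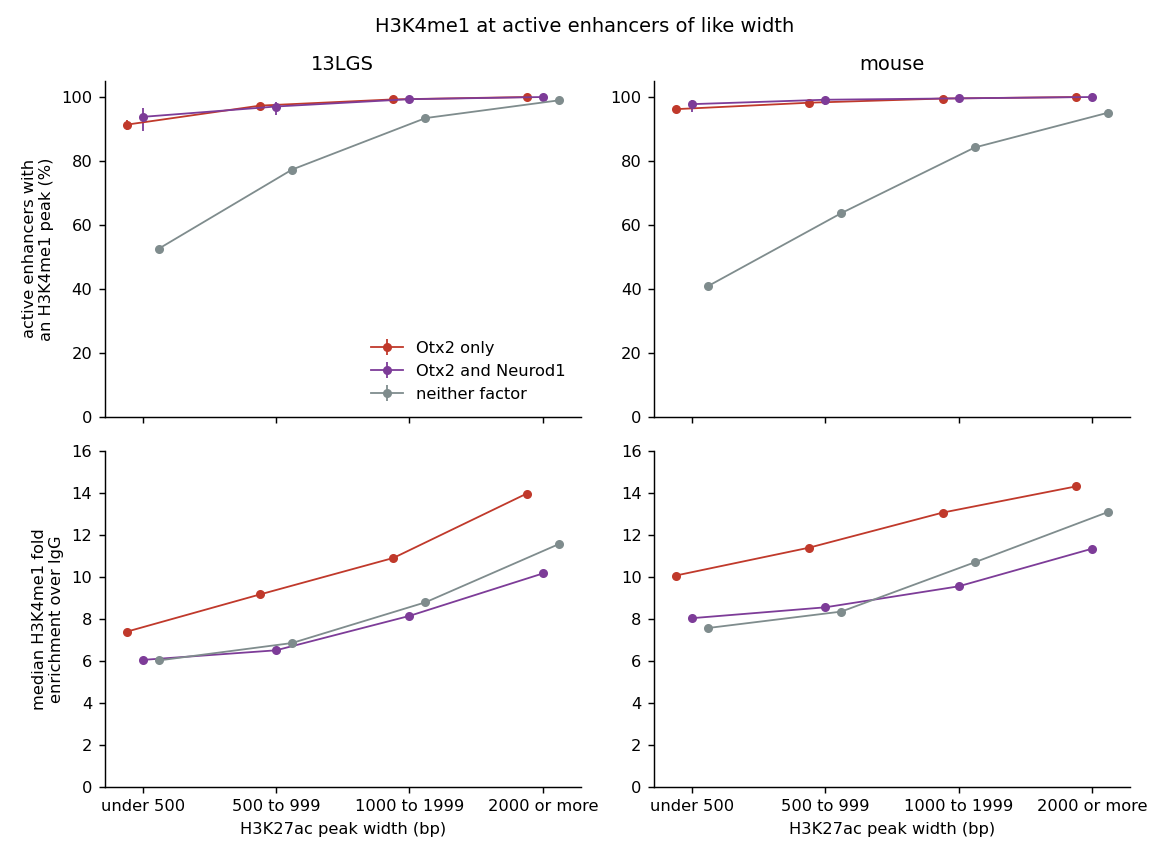
Share of active enhancers with an H3K4me1 peak (top, with 95% Wilson intervals) and median H3K4me1 fold enrichment over IgG of those that have one (bottom), by H3K27ac peak width, in 13LGS and mouse. Under 500 bp, 91.4% of 13LGS and 96.2% of mouse members (red) have H3K4me1 against 52.5% and 40.8% of unbound enhancers (grey), and the red line of medians is above the other two lines at each width.

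The 162 members in 13LGS and 73 in mouse without H3K4me1 were small. Their median widths were 354.5 and 382 bp, with median H3K27ac fold enrichments of 2.97 and 3.12 and Otx2 fold enrichments of 2.88 and 3.10. Each of these medians was below that of all members.

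In mouse, the Otx2 motif was found around the Otx2 summits of members. TAATCC, searched on both strands, lay within 150 bp of the summit in 1084 of 4771 members, 22.7% (21.6 to 23.9). The share was 18.3% of windows of the same length around all Otx2 peaks, 23.4% (21.4 to 25.5) at enhancers bound by both factors, and 9.73% (9.47 to 9.99) around the H3K27ac summits of unbound enhancers. Centred on the H3K27ac summit as for the unbound group, a setting chosen after the data were seen, members held it in 14.8% (13.8 to 15.8). Of the 594 members of the shortened Otx2 list, 37.4% held it around the Otx2 summit. The motif was rare at the summit itself and dense beside it: matches numbered 0.296 per kb in the first 50 bp, 1.47 per kb from 100 to 150 bp, and 0.375 per kb from 450 to 500 bp. The width of the window thus decides the share, which was 2.81% within 50 bp and 35.8% within 250 bp, where unbound enhancers had 3.17% and 16.3%. Most members with the motif had it once (941), and 124 had 2 and 19 had 3 matches.

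TAATCC followed the strength of Otx2 binding among members. Its share rose from 14.2% (12.3 to 16.3) in the group with the weakest Otx2 peaks to 18.4%, 24.2%, and 34.1% (31.5 to 36.9) in the group with the strongest, whose Otx2 fold enrichments ran from 4.65 to 31.7. The intervals of the 2 weakest groups met at 16.3%, and those of the other neighbours did not meet. The bHLH site CAGATG showed no such rise, at 28.1%, 28.7%, 26.4%, and 25.1%.

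Sites of other factors were counted in the same way, around the Otx2 summit for members and enhancers bound by both, and around the H3K27ac summit for unbound enhancers and those bound by Neurod1 only, so that the latter shares have another centre. CAGATG, an E-box bound by Neurod1, lay within 150 bp in 27.1% of members (25.8 to 28.3), against 46.4% of enhancers bound by both (43.9 to 48.8) and 22.3% of all Otx2 peaks, and in 45.9% of those bound by Neurod1 only (39.6 to 52.3) and 24.6% of unbound ones (24.2 to 24.9). Its density in members was highest from 150 to 200 bp, at 1.15 per kb, and lowest from 300 to 350 bp, at 0.746 per kb. At enhancers bound by both it reached 3.00 per kb, also from 150 to 200 bp. At unbound enhancers it was highest in the first 50 bp, at 0.985 per kb. The E-box CAGCTG, which other bHLH factors prefer, was in 24.9% of members, 36.7% of enhancers bound by both, 20.7% of all Otx2 peaks, and 17.7% of unbound ones. The reverse held for TAATTA, the core site of Lhx, Vsx, and Rax homeodomain factors, in 11.6% of members (10.7 to 12.6), 7.91% of enhancers bound by both (6.70 to 9.32), 7.74% of all Otx2 peaks, and 7.99% of unbound enhancers (7.76 to 8.23). ATTGTT, a Sox site, was in 17.2% of members, 11.8% of enhancers bound by both, 10.9% of all Otx2 peaks, and 19% of unbound ones. AGGTCA, a nuclear receptor site, was in 23.0% of members (21.8 to 24.2), 23.7% of enhancers bound by both (21.7 to 25.8), 17.4% of all Otx2 peaks, and 20.9% of unbound enhancers. TGCTGA, a Maf site, was in 27% of members (25.7 to 28.2), 27.5% of enhancers bound by both (25.4 to 29.7), 21% of all Otx2 peaks, and 24.2% of unbound enhancers, so for these 2 sites the intervals of members and enhancers bound by both overlapped. The median GC content of the windows was 49.2% in members, 51.8% at enhancers bound by both, 53.5% at all Otx2 peaks, and 45.5% at unbound ones, and its part in these shares was not tested. Motifs were searched separately and a base could count for more than 1, with CAGCTG and TAATTA reading the same on both strands. A match is a run of letters and not a measured site.

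**Figure D2:**
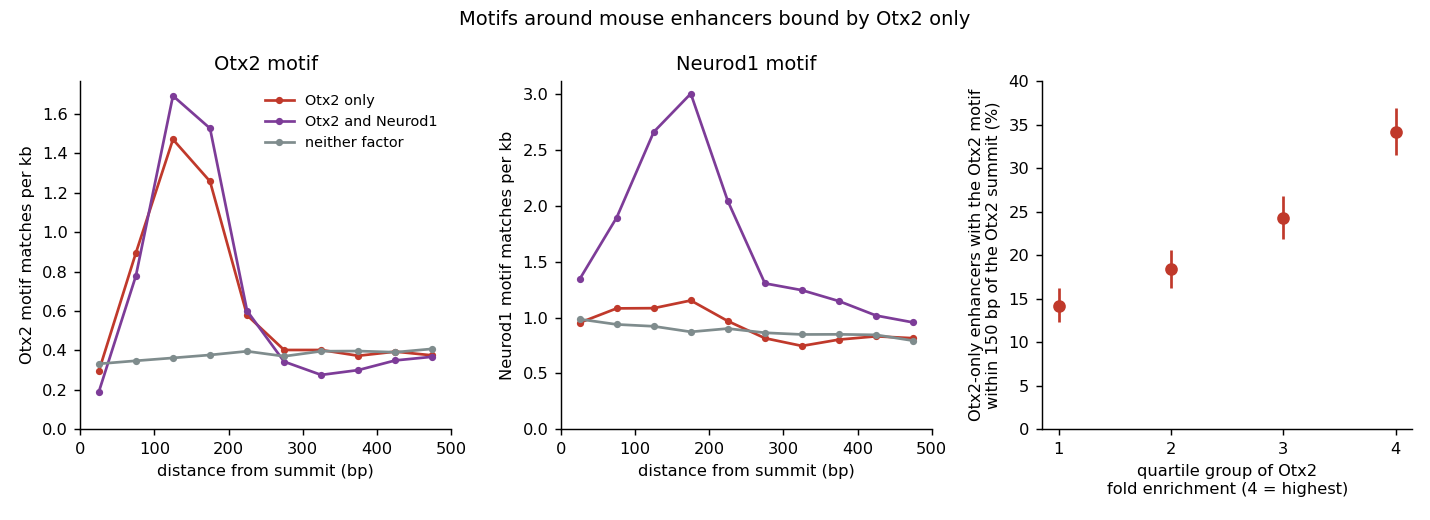
Matches per kb of the Otx2 motif TAATCC (left) and the Neurod1 motif CAGATG (middle) by distance from the Otx2 summit (from the H3K27ac summit for enhancers bound by neither), in 50 bp bins, and the share of mouse members with TAATCC by quartile group of Otx2 fold enrichment with 95% Wilson intervals (right). The Otx2 motif peaks at 1.47 per kb 100 to 150 bp from the summits of members (red), the Neurod1 motif stays at or under 1.15 per kb there, and the share with the Otx2 motif runs from 14.2% to 34.1%.

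Members and enhancers bound by both factors were more often intergenic than unbound active enhancers. By GENCODE M21, 2043 mouse members (42.8%, 41.4 to 44.2) had their middle outside protein-coding genes, against 32.2% (31.8 to 32.7) of unbound enhancers and 41.2% (38.8 to 43.6) of those bound by both. Introns held 52.9% of members and 62.5% of unbound enhancers, and exons held 4.23% and 5.27%. The nearest protein-coding transcript start lay a median of 22.3 kb away for members, 25.7 kb for unbound enhancers, and 16.9 kb for those bound by both. None lay within 500 kb of 134 of the 4771 members, against 4121 of all 58164 active enhancers. Although the rule left out H3K4me3 peaks, 457 members (9.58%) lay within 2 kb of an annotated start. This was close to the 8.10% of all active enhancers, with 7.86% of unbound ones and 10.9% of those bound by both. The nearest H3K4me3 peak was a median of 63.2 kb from members in 13LGS and 48.4 kb in mouse. These distances lay between the 86.2 and 79.9 kb of unbound enhancers and the 47.7 and 35.1 kb of those bound by both. The next member was a median of 40.6 kb away in 13LGS and 53.1 kb in mouse, and 18.5% and 19.7% of members had another within 5 kb. The like shares of the other groups were not counted.

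The 4637 mouse members with a start within 500 kb were nearest to 2801 of 21951 protein-coding genes, 12.8% of them, and to 17.8% of the 12289 genes with an H3K4me3 peak within 1 kb of a start. The nearest gene need not be the one that an enhancer controls, and with any start within 100 kb counted the share of protein-coding genes was 30.4%. Of the 2801 genes, 1841 had 1 member, 858 had 2 to 4, and 102 had 5 or more. The most members were counted at *Zfp608* (20 of its 65 nearest active enhancers), *Celf4* (14 of 78), *Ppm1h* (13 of 72), *Msi2* (11 of 74), and *Zfp536* (11 of 86). *Zfp608* and *Zfp536* encode zinc finger proteins, *Celf4* and *Msi2* RNA-binding proteins, and *Ppm1h* a phosphatase. The strongest member of *Ppm1h*, in an intron of the gene on chromosome 10 from 122792257 to 122792968, had an Otx2 fold enrichment of 11.6 and H3K27ac of 7.92.

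Progenitor, Notch pathway, and Muller glia genes were the lists most often next to a member. At least 1 member was nearest to 15 of 22 retinal progenitor genes, 14 of 22 Notch and proneural genes, and 11 of 15 Muller glia genes, or 68.2%, 63.6%, and 73.3% against 12.8% of all protein-coding genes. The lists overlap (*Sox9*, for instance, is in 2 of them), and such genes lie among many active enhancers, so the share of the nearest active enhancers that were members is given too. It was 22.9% (17.7 to 29.0) for progenitor genes, 21% (14.7 to 29.2) for Notch and proneural genes, and 16.4% (11.5 to 22.8) for Muller glia genes, against 8.58% for all protein-coding genes. Of the active enhancers nearest to Muller glia genes, 27 were bound by Otx2 only and 1 by both factors. For progenitor genes the numbers were 48 and 9, and for Notch and proneural genes 25 and 12. Enhancers bound by both were thus 0.606%, 4.29%, and 10.1% of the active enhancers of these 3 lists, against 2.99% for all genes.

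Among progenitor genes, *Nfib* had the most members (8 of 23 active enhancers), followed by *Sox2* (7 of 19), *Sox9* (7 of 26), and *Zfp36l1* (7 of 53). *Nfib* encodes a TF of late progenitors, *Sox2* and *Sox9* encode TFs of progenitors and glia, and *Zfp36l1* an RNA-binding protein. In the Notch and proneural list, the Notch ligand *Dll1* had 3 members of 5, *Id3*, an inhibitor of bHLH factors, 3 of 4, and *Neurog2*, a proneural bHLH TF, 2 of 2. Of the Muller glia genes other than *Sox9*, the glutamate transporter *Slc1a3* had 4 of 29, *Sox8* 4 of 9, and the receptor *Gpr37* 2 of 32. The strongest member of *Gpr37*, an intergenic peak on chromosome 6 from 25442999 to 25446137, had an H3K4me1 fold enrichment of 36.5, H3K27ac of 8.73, and Otx2 of 4.91.

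Photoreceptor TFs had members at 9 of 20 genes (45%), rod phototransduction genes at 20%, and cone phototransduction genes at 7.69%, against 12.8% of all genes. *Casz1*, a TF of late progenitors that favours rods, had 6 members and 9 enhancers bound by both factors among 43. *Mef2c* had 4 of 13, *Prdm1*, which keeps precursors from bipolar fate, 3 of 23 with 4 bound by both, and the nuclear receptor gene *Rorb* 2 of 64. Their share of members among active enhancers, 10.1% (6.70 to 14.9), was close to the 8.58% of all genes, and enhancers bound by both factors made up 9.13% of their active enhancers against 2.99% for all genes. Rod phototransduction genes had a member at 4 of 20 (*Rgs9*, *Gnb1*, *Pde6a*, and *Cngb1*), with 5 members among 19 active enhancers, 26.3% (11.8 to 48.8). The *Cngb1* member had Otx2 of 2.06 with a −log10 q of 1.48. The *Pde6a* member lay in a *Ppargc1b* intron, and the *Gnb1* member lay 0.144 kb from a start and had no H3K4me1 peak. By any start within 100 kb, rod genes and photoreceptor TFs each had members at 11 of 20 (55%), against 30.4% of all genes. Cone phototransduction genes had a member at 1 of 13, the exchanger gene *Slc24a2*. Bipolar cell genes had members at 7 of 20 (35%), with 10 members among 49 active enhancers, 20.4% (11.5 to 33.6). Another 6 of the 49 were bound by both factors, 12.2%. The genes with members included *Irx6* (3 of 6) and *Irx5* (2 of 2), TFs of bipolar subtypes, *Prkca*, the rod bipolar kinase (1 of 5), and *Bhlhe23* (1 of 1). Ribbon synapse genes had members at 9 of 17 (52.9%), and their share of members among active enhancers, 10.6% (6.74 to 16.4), had an interval that held the 8.58% of all genes. Members were 6 of 53 at *Nrxn3*, 3 of 7 at *Elfn1*, an adhesion protein of rod synapses, and 2 of 4 and 1 of 3 at the complexins *Cplx4* and *Cplx3*. Of the strongest members of these 4 genes, that of *Cplx4* had the highest Otx2 fold enrichment, 12.4. Its Otx2 summit lay outside the acetylated peak.

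Genes of other retinal neurons and of other tissues were mixed. Of 21 amacrine, horizontal, and ganglion cell genes, 1 (4.76%) had any member, namely *Prox1*, a TF of horizontal and amacrine cells (3 of 11 active enhancers), although 17 had an H3K4me3 peak near a start. Of the 52 active enhancers nearest to these genes, 3 were members, 5.77% (1.98 to 15.6). Another 6 were bound by both factors, 11.5% against 2.99% for all genes. Liver genes had members at 2 of 18 (*Apob* and *Ttr*, 11.1%), close to the 12.8% of all genes. Members were 3 of their 34 active enhancers, 8.82% (3.05 to 23.0), close to the 8.58% of all genes. Pigment epithelium genes had members at 3 of 14 (*Trpm3*, *Tyrp1*, and *Ttr*, 21.4%). Of their 102 active enhancers 6 were members, 5.88% (2.72 to 12.2), with an interval that held the 8.58% of all genes. Myeloid genes had them at 3 of 12 (25%), where *Ptprc* had 8 members among 64 active enhancers, and vascular genes at 5 of 12 (41.7%; *Cdh5*, *Kdr*, *Pecam1*, *Flt1*, and *Vwf*). The member shares of active enhancers at the myeloid and vascular lists, 11.9% (6.6 to 20.5) and 12.9% (6.69 to 23.4), had intervals that held the 8.58% of all genes. No myeloid or liver gene and 2 of the 12 vascular genes had an H3K4me3 peak within 1 kb of a start. By any start within 100 kb, 30.4% of all genes had a member. The counts were then 4 of 21 amacrine, horizontal, and ganglion cell genes, 5 of 18 liver genes, and 3 of 14 pigment epithelium genes. For myeloid genes the count was 7 of 12, and for cone genes 2 of 13. Of these lists, only the myeloid genes were above the share of all genes. The strongest *Ptprc* member was 188.7 kb downstream of the nearest start, 6787 bp wide, with H3K27ac of 11.5, H3K4me1 of 37.3, and Otx2 of 11.3. These counts place members beside genes and do not assign them.

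**Figure D3:**
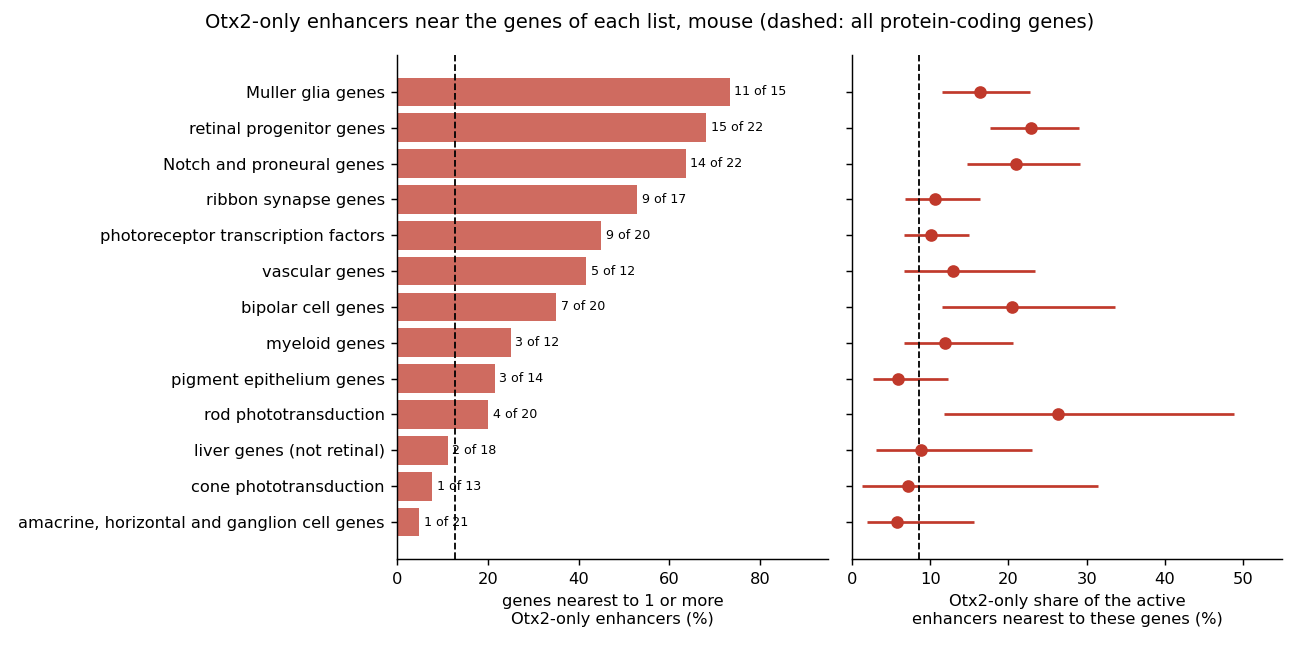
Percentage of genes in each of 13 lists that are nearest to 1 or more mouse members (left, with counts) and percentage of their nearest active enhancers that are members, with 95% Wilson intervals (right); dashed lines mark all protein-coding genes at 12.8% and 8.58%. Muller glia, progenitor, and Notch and proneural genes lead on the left, and their intervals on the right lie above the dashed line, as do those of bipolar cell genes and rod phototransduction genes. The rod share rests on 5 members among 19 active enhancers.

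At 5 of these loci, members lay away from transcript starts, and neighbours often shared an Otx2 peak. The 8 *Nfib* members were all intronic, with H3K27ac fold enrichments of 2.54 to 7.88, Otx2 of 2.51 to 9.22, and H3K4me1 of 13.0 to 23.5. A pair of them, from 82689625 to 82690887 and from 82691276 to 82692493 on chromosome 4, shared an Otx2 peak of 8.71-fold whose summit lay in neither. The 7 *Sox9* members were intergenic, from 73.6 kb upstream to 263.9 kb downstream of the start, with Otx2 of 2.51 to 7.22 and the strongest upstream, from 112708060 to 112709160 on chromosome 11. A pair of *Sox9* members at 28.8 and 29.5 kb downstream also shared 1 Otx2 peak, of 3.87-fold, with its summit in neither. The 7 *Sox2* members were intergenic as well. On chromosome 3, 3 of them lay between 34441756 and 34444631, upstream of the gene. These 3 had the same strongest H3K4me1 fold enrichment, 19.9, which was taken as 1 shared peak and not as separate values. Another was 434.5 kb downstream.

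All 4 *Mef2c* members lay 96.7 to 225.7 kb downstream of a start, with Otx2 between 2.66 and 4.86, and the first pair, at 96.7 and 97.9 kb, shared 1 Otx2 peak with its summit in the nearer one. The *Prdm1* members had Otx2 of 3.55, 2.68, and 18. The strongest was 218 bp wide, from 44476195 to 44476412 on chromosome 10 in a *Prdm1* intron, with H3K27ac of 4.34, and its Otx2 summit, at 44476863, lay outside the acetylated peak.

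**Figure D4:**
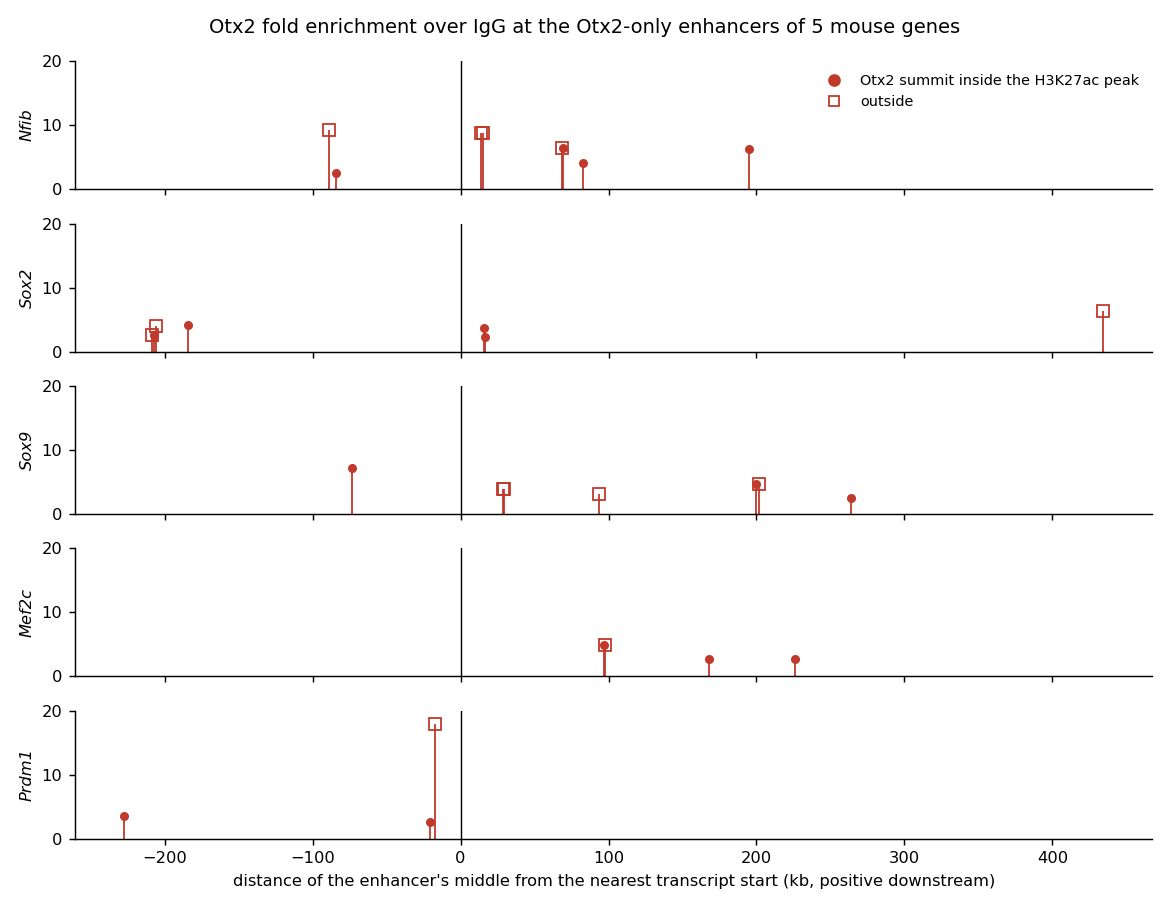
Otx2 fold enrichment over IgG (height) of each mouse member nearest to *Nfib*, *Sox2*, *Sox9*, *Mef2c*, and *Prdm1* by distance from the nearest annotated transcript start in kb; filled circles have the Otx2 summit inside the H3K27ac peak and open squares outside. All 29 members lie over 10 kb from a start, the highest is the *Prdm1* member at 18, and neighbouring symbols of equal height share an Otx2 peak.

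The members with the strongest Otx2 peaks were not those with the strongest acetylation. In mouse the 5 highest Otx2 fold enrichments were 31.7, 26.7, 25.6, 22.9, and 21.5, at members whose H3K27ac fold enrichments were 3.24, 7.34, 5.23, 3.79, and 3.39. The first, 0.462 kb upstream of *Mindy4* on chromosome 6 from 55202597 to 55203245, was 0.042 kb from an H3K4me3 peak and 0.16 kb from a Neurod1 peak, and so it met the rule by a narrow margin. The second, 409.9 kb upstream of *Apob* on chromosome 12 from 7565359 to 7570133, was 637.7 kb from any H3K4me3 peak. The fourth lay in an intron of *Nsmce2* on chromosome 15 from 59564850 to 59565356, with *Trib1* as nearest start, and the fifth in an intron of *Abcb4* on chromosome 5 from 8947553 to 8947980. The 5 highest H3K27ac fold enrichments, 15.1 to 23.1, had Otx2 of 2.51 to 5.16. They were in introns of *Atg10*, *Rnf216*, the agouti gene *a*, and *Cdk6*, and 1 had no start within 500 kb, and the *Atg10* member was 8054 bp wide, from 90956127 to 90964180 on chromosome 13.

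The 13LGS members gave the same picture of values, by position only. Their 5 highest Otx2 fold enrichments were 22.4, 20.7, 15.6, 13.8, and 13.7, with H3K27ac between 3.22 and 7.87. The first was on Itri4 from 125775256 to 125775840, 244.4 kb from an H3K4me3 peak, whereas the third, on Itri15 from 20054399 to 20056013, was 0.021 kb from one. The 5 highest H3K27ac fold enrichments were 19.7 to 26.7, in peaks of 4744 to 9444 bp, with Otx2 of 3.44 to 6.28 and H3K4me1 of 19.3 to 24.4. Of these, 3 were on Itri3, the first from 71959235 to 71968678.

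The study linked accessible elements to *Mef2c*, *Rxrg*, and *Thrb*, and members overlapped such elements at 13LGS *Thrb*. *Thrb* encodes the thyroid hormone receptor of cones, and 3 members were found there. No member overlapped an element linked to *Mef2c* or *Rxrg* in 13LGS or to any of the 3 genes in mouse. The numbers of linked elements differed, with fewer in mouse and at *Mef2c* and the most at 13LGS *Rxrg*, so the genes and species were not compared. By nearest start, mouse *Thrb* and *Mef2c* did have members. The 3 members at 13LGS *Thrb* lay on Itri2. The first, from 182526119 to 182526389, had H3K27ac of 3.16, Otx2 of 4.42, and H3K4me1 of 6.30. The second, from 182607953 to 182609261, had 4.69, 5.66, and 3.85, and the third, from 182650630 to 182651485, had 3.68, 9.0, and 11.2. All 3 had the Otx2 summit outside the H3K27ac peak, and the third lay 0.268 kb from a Neurod1 peak, against 125.4 and 42.5 kb for the others.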

How the data were processed

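Per the labels, nuclei of P5 13LGS and P2 mouse retina were profiled by CUT&RUN for H3K4me3, H3K27ac, H3K4me1, Otx2, Neurod1, and IgG. The authors trimmed reads (Trim Galore 0.6.4 and cutadapt 3.5 in the submitters' processing notes), aligned them with Bowtie2 to HiC_Itri_2 or GRCm38, removed duplicates, and called peaks with macs2 jointly over the libraries of a target against IgG at a q-value of 0.05. Blacklisted and mitochondrial regions were removed for mouse only. The deposited fold enrichment is the ratio of pooled signal to IgG at the summit, and the deposited −log10 q-value gives significance. Neither was rescaled.

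Peaks were intersected with pandas 2.3.3 and numpy 2.4.6 (Python 3.11.15), intervals came from scipy 1.17.1, and plots from matplotlib 3.10.9. An overlap was at least 1 bp. On simulated peaks, the overlaps were tested against those of bedtools 2.31.1. The value of a mark at an enhancer is that of the strongest overlapping peak. Middles of peaks were linked to the nearest protein-coding transcript start of GENCODE M21 within 500 kb, and motifs were counted on GRCm38 within 150 bp of summits. No sequence on mouse chromosome 18 is printed or counted among the windows of named members. The 13LGS genome and annotation were not used here. The named members were the 5 with the highest Otx2 and H3K27ac fold enrichments in each species, up to 4 genes with the most members in each of 13 lists, the 5 genes with the most members, and members overlapping accessible elements linked to *Mef2c*, *Rxrg*, or *Thrb*, whose positions alone were taken from the supplement of the study. The loci of 5 genes were picked from these after their values were seen, and 1 gene named by the rule is not reported here. The members, gene lists, and alternatives were chosen with earlier results of these data known. Pooled lists allow no test and no leaving out of a replicate. The alternatives were a longer overlap, Otx2 summits inside the peak, stricter q-values and fold enrichments, a shorter Otx2 list, a margin of 1 kb, merged peaks, chromosomes only, other motif windows, and another link to genes.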

Additional observations from a re-analysis of the deposited data

How the results depend on the processing

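The share of active enhancers bound by Otx2 only moved with its definition. It was 4.93% in 13LGS and 5.87% in mouse with an overlap of at least 250 bp, 6.78% and 6.65% with the Otx2 summit inside the H3K27ac peak, 9.81% and 12.9% when only peaks at −log10 q 5 or above were kept, 7.12% and 7.61% with a fold enrichment of at least 2.5, 7.49% and 7.78% without H3K4me3 or Neurod1 within 1 kb, and 8.66% and 8.80% with H3K27ac peaks within 500 bp merged. With the Otx2 list cut to the number of Neurod1 peaks it was 0.784% and 1.02%, since that list is shorter by construction. The share of members with H3K4me1 moved beyond its interval to 98.9% in 13LGS and 99.1% in mouse with the longer overlap, 98.1% in 13LGS with the summit inside, 98.4% in 13LGS with the stricter q, 98.1% in mouse with the higher fold, and 98.7% and 98.8% with the shorter Otx2 list, while unbound enhancers had 50.1% to 82.6% over the 9 settings and both species. The share of mouse members with TAATCC was 21.4% with the summit inside, 24.7% with the stricter q, 37.4% with the shorter Otx2 list, 2.81% and 35.8% within 50 and 250 bp of the summit, and 14.8% around the H3K27ac summit, the last chosen after the data were seen. Counting any gene with a start within 100 kb of a member raised the share of protein-coding genes from 12.8% to 30.4%, and the count rose in 11 of the 13 lists, with rod phototransduction genes going from 4 to 11 of 20, myeloid genes from 3 to 7 of 12, liver genes from 2 to 5 of 18, amacrine, horizontal, and ganglion cell genes from 1 to 4 of 21, and cone phototransduction genes from 1 to 2 of 13. Except for the shorter list and the other windows, which act by construction, the cause was not tested. The remaining 24 of 57 values moved less than their interval or, for counts, by less than 1.5 times. No paired analysis was possible because each list pools its libraries and no result comes from a test. Depth is unknown, so a region without a peak may hold one below the calling threshold. Motifs in 13LGS were not analysed here.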
